A study of Mus musculus with 147 samples.

Results

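The genes described here load and form the replicative helicase of mouse germ cells. They are the 6 genes of the Mcm2 to Mcm7 ring, the loaders Cdt1 and Cdc6, the Cdt1 inhibitor Gmnn (geminin) and Mcm8. They are 10 of the 31053 genes of the UMI count table. They were taken by name, though with earlier results of these data known, and all 10 passed the filter on low counts. Single cells from E8.5 to the adult were sequenced with a modified STRT-seq (single-cell tagged reverse transcription), in which every transcript carries a unique molecular identifier (UMI) and is read at its 3′ end. Wild-type germ cells came from crosses of C57BL/6 females with males that carry the BVSC reporters (Blimp1-mVenus and Stella-ECFP), so that wild-type and Helq null embryos share both transgenes. Up to E18.5 cells were sorted by these reporters, and after birth cells with germ cell morphology were picked, except that cells of PND30 were also sorted by DNA content into 1N, 2N and 4N gates. By the study's methods the sort used Stella-ECFP alone from E14.5, as Blimp1-mVenus falls then, while the cell labels still name the gate BVSC. The part of this change in comparisons across E14.5 was not tested. Helq null mice descend from BVSC embryonic stem cells, grown from single sorted cells, with a short deletion in the first exon of both Helq alleles, and their cells were taken daily from E11.5 to E15.5 and at E18.5.

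Before a cell divides, the origin recognition complex, Cdc6 and Cdt1 place Mcm2 to Mcm7 rings on origins in G1, which licenses each origin for a single firing. In S, G2 and M phase geminin binds Cdt1 and prevents a new round of loading. Mcm8 is a relative of the ring subunits that acts with Mcm9 in homologous recombination and is needed for fertility. Primordial germ cells (PGCs) of the male proliferate until they enter mitotic arrest in the fetal testis, resume division after birth as spermatogonia, replicate a last time before meiosis, and pass both meiotic divisions without replication.

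For orientation in the genome (mm10), Mcm3 and Mcm6 lie on chromosome 1, Mcm8 on chromosome 2, Mcm7 on chromosome 5, Mcm2 on chromosome 6, Mcm5 and Cdt1 on chromosome 8, Cdc6 on chromosome 11, Gmnn on chromosome 13 and Mcm4 on chromosome 16. The promoters of the members are shown with letters that E2F factors, which drive S phase genes, are known to bind, and the part of these letters in any level was not tested. RefSeq promoters (GRCm38.p6, 250 bases before to 50 after the start) were found for 8 members, and Mcm4 and Gmnn had no entry. The searched letters were TTTCCCGC, TTTGGCGC, TTTCGCGC and TTTGCCGC on both strands, and matches on opposite strands can overlap, as TTTGGCGCGAAA in Mcm6 does. They occurred in 7 of these 8 members, not in Mcm2, and in 704 of all 27025 genes with a promoter (2.6%). In the windows below, 5′ to 3′ on the strand of the gene, capitals mark the matches, and the start is that of RefSeq. Each gene is given 1 window. A further match in Mcm3 (GCGGGAAA, from base 20 after the start) and in Mcm7 (TTTCGCGC, from base 17 after the start) is not marked. All letters but the first of the former open the Mcm3 window in lower case. In the GENCODE annotation Mcm7 and Cdc6 begin further upstream, so that their windows lie inside the gene listed there.
Mcm6, before the start, chr1:128359706-128359895, minus strand: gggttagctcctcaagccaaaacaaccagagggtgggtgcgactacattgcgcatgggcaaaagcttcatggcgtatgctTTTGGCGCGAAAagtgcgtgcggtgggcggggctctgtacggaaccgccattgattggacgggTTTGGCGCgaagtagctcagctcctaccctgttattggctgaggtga
Mcm5, before the start, chr8:75109319-75109508, plus strand: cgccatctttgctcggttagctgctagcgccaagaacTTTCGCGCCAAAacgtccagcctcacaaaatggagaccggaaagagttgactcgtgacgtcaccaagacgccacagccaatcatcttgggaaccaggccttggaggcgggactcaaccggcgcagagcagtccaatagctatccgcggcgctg
Mcm7, before the start, chr5:138172030-138172059, minus strand: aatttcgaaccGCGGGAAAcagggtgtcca
Cdc6, before the start, chr11:98908002-98908031, plus strand: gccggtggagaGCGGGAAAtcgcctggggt
Mcm3, after the start, chr1:20820263-20820292, minus strand: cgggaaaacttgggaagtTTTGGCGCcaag
Cdt1, after the start, chr8:122568035-122568064, plus strand: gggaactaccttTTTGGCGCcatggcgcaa
Mcm8, after the start, chr2:132816161-132816190, plus strand: gcagaagcgcgtcatagacGCGCCAAAaaa
A match describes the letters of these windows and is not evidence that a factor binds there.

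A pool is the germ cells of 1 time-point and replicate, at PND30 also of 1 gate, and its counts were summed and given as counts per 1000000 UMIs of the pool (CPM). Of 9400 wild-type cells from E8.5 to the adult that passed the filters and the gate, 8443 were germ cells by a list of marker genes that holds no member. They formed 57 pools of 25 to 447 cells with 11391996 to 187788707 UMIs (median 37933031). Most groups had 2 pools, E10.5 had 3, and E8.5 and the ungated cells of PND30 had 1. For E8.5 this was since 0 of 48 and 2 of 48 sorted cells of its other replicates were germ cells by the markers. The cells of E8.5 and E9.5, and 180 cells of E10.5, were of replicates without a sex label, and later cells are given as male. The 96 cell barcodes were reused between libraries, and 0 libraries held a barcode more than once. The study describes its replicates as independent, made of pooled embryos or gonads before birth and of 1 gonad each after it, and the 3 gates of a PND30 replicate thus share an animal. In the pools fewer transcribing cells and less RNA per cell cannot be told apart. One pool stood apart. In adult replicate 1 the 34 somatic markers summed to 1119 CPM, against 73.7 CPM in adult replicate 2, and Mcm2 was at 87.3 CPM against 2.84 CPM. The part of the markers in this was not tested. No comparison uses adult pools, but they enter the spread that all wild-type pools share, so counts of members are given with and without this pool where they differ.

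In PGCs from E8.5 to E13.5 the sum of Mcm2 to Mcm7 lay between 1454 and 2096 CPM in each of the 12 pools, with the highest value in E10.5 replicate 1 and the lowest in E13.5 replicate 2. Mcm2, a subunit that also carries parental histones, was at 254.7 to 351.8 CPM in these pools. Gmnn was at 266 to 376.6 CPM. Cdc6, the ATPase that opens the loading reaction, was lower, with 24.7 CPM in E13.5 replicate 1 as its lowest level and its highest in E10.5 replicate 1. In single cells, 80.2% to 100% of the cells of each of these pools had a Mcm2 to Mcm7 sum above 1000 CPM, a level chosen after the values were seen.

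The arrival of PGCs at the gonad did not change the members detectably. In a fit over all wild-type pools (edgeR's quasi-likelihood test with Benjamini-Hochberg adjustment over 27688 genes, used for all comparisons over time), 0 of 10 members differed between E11.5 and E12.5 (4 pools) and E9.5 and E10.5 (5 pools), and 4.38% of all genes did. At an unadjusted p under 0.05 the number of members was also 0, and DESeq2 called 0. Log2 differences of the members lay between -0.50 for Cdc6 and 0.09 for Mcm8. Of 58 other replication and proliferation genes that were listed and tested, 1 rose, the ubiquitin ligase subunit Cul4a.

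**Figure D1:**
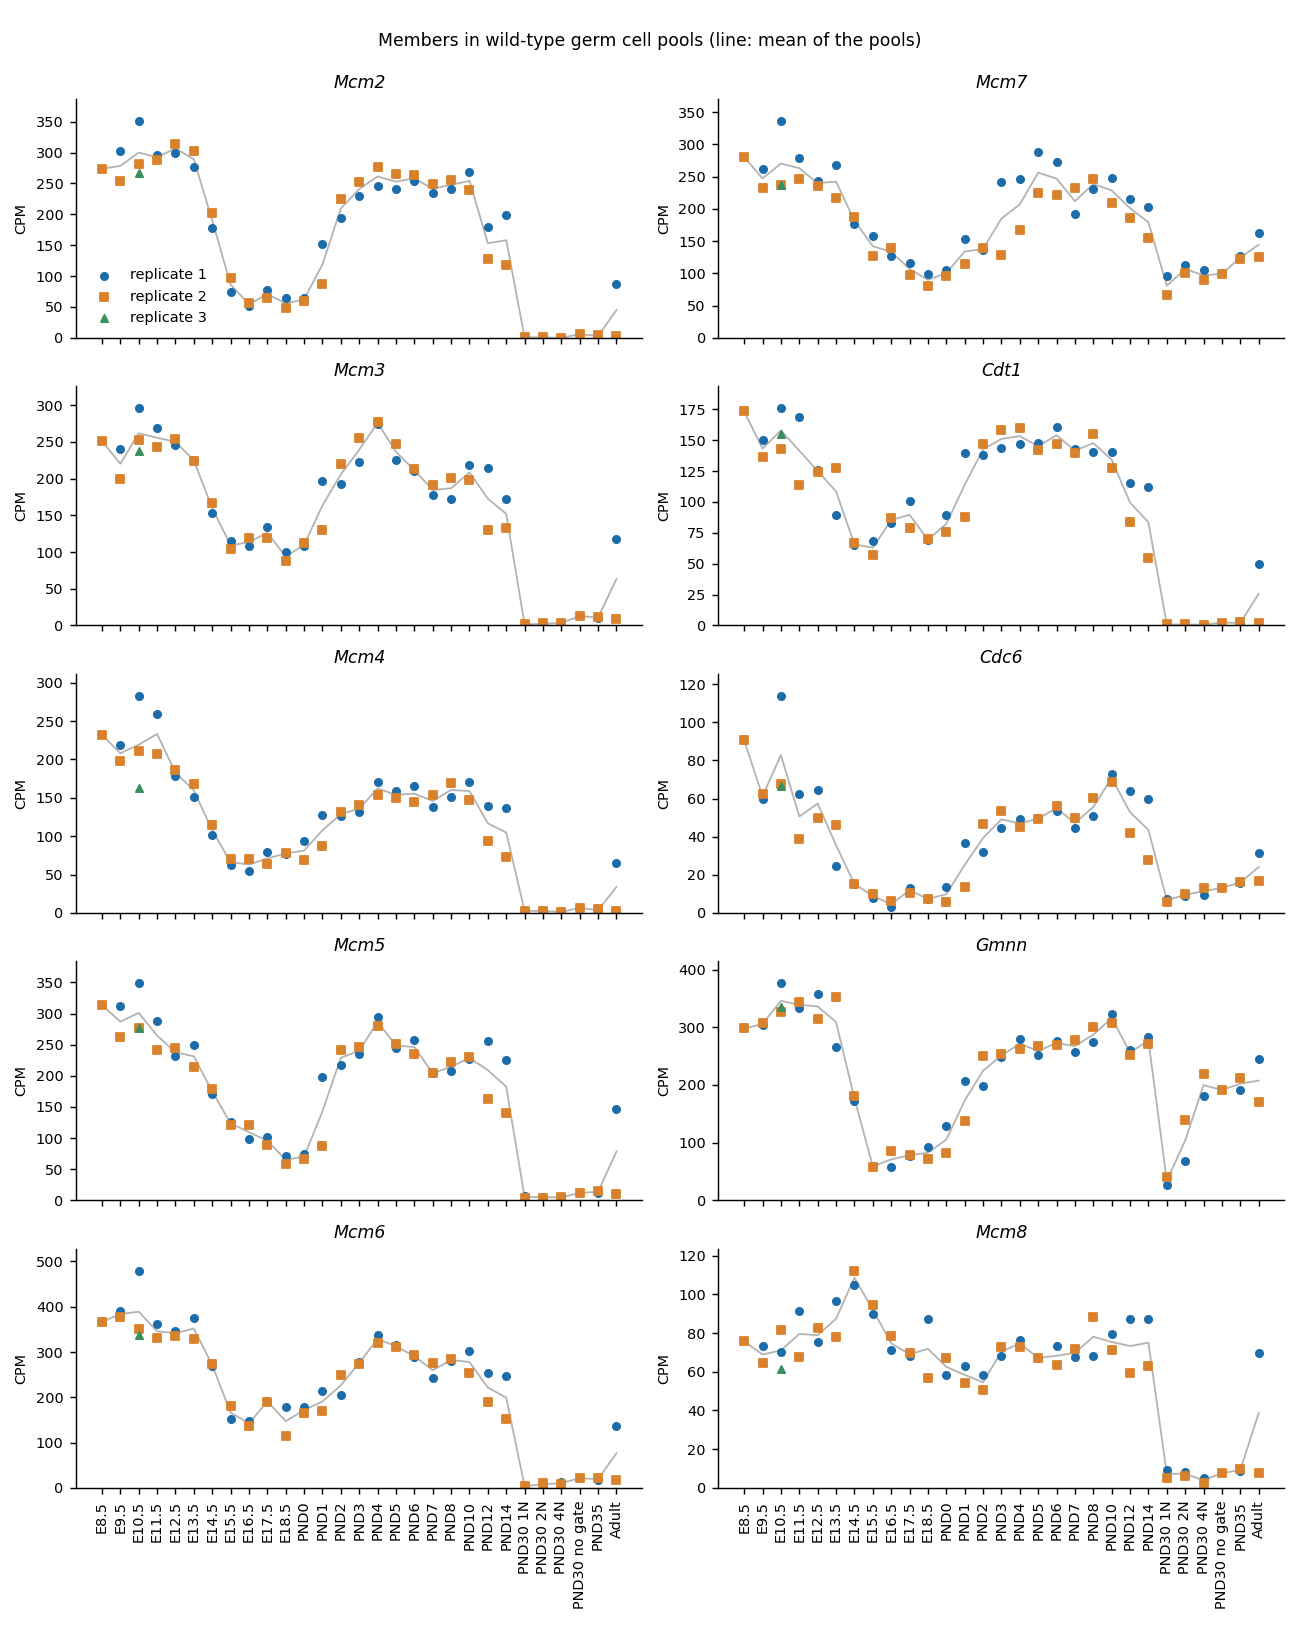
CPM (y axis, from 0) of each member in the wild-type germ cell pools, by time-point and PND30 gate (x axis), with 1 mark per pool, its shape and colour giving the replicate, and a line through the group means. The Mcm2 to Mcm6 panels fall from E13.5 to E15.5, rise from PND0 to PND4 and lie near 0 from PND30 on except in adult replicate 1, while Mcm7 and Gmnn stay at or above 27.1 CPM there.

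The ring, Cdc6 and Gmnn were lower in PGCs in mitotic arrest than in proliferating PGCs. Mcm2 was at 296, 289, 300.0 and 314 CPM in the pools of E11.5 and E12.5 and at 74.97, 97.7, 51.7 and 57.2 CPM in those of E15.5 and E16.5, and the groups did not overlap. The difference was -2.30 on the log2 scale (SE 0.56, adjusted p = 0.00112, edgeR). Gmnn went from 333, 345, 357 and 315 CPM to 60.4, 57.2, 57.3 and 84.8 CPM, a log2 difference of -2.56 (SE 0.23, adjusted p = 2.49e-10, edgeR). Cdc6 had the steepest fall, from 62.3, 38.8, 64.7 and 50.04 CPM to 8.05, 9.79, 2.88 and 6.15 CPM, that is -3.26 on the log2 scale (SE 0.36, adjusted p = 7.69e-09, edgeR). For both genes every arrested pool lay below every pool of proliferating PGCs. The reporters used for sorting also differed between these groups, and the part of this was not tested.

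In all, 8 of 10 members were lower in arrested than in proliferating PGCs, where 13.3% of all genes were lower and 30.5% higher. The members' median log2 difference was -1.35, and that of all genes tested was 0.86. With other scalings that background was between 0.23 and 0.84, and 8 members were called lower with DESeq2. Among the ring subunits the log2 fall was -1.85 (SE 0.40) for Mcm4, -1.36 (SE 0.43) for Mcm3, -1.33 (SE 0.33) for Mcm6 and -1.29 (SE 0.36) for Mcm5. Mcm7 had the smallest, -1.05 (SE 0.20). Cdt1 was at 168.9, 114.1, 126.2 and 123.9 CPM and then at 68.4, 57.4, 83.1 and 87.3 CPM, without overlap, but its difference of -1.04 (SE 0.53) did not pass (adjusted p = 0.116, edgeR). It did without adult replicate 1 (adjusted p = 0.0207), which gave 9 members. Mcm8 was not among them in either fit. It was at 91.4, 67.6, 75.2 and 82.6 CPM in proliferating and at 89.8, 94.4, 71.04 and 78.4 CPM in arrested PGCs, a log2 difference of -0.11 (SE 0.33).

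**Figure D2:**
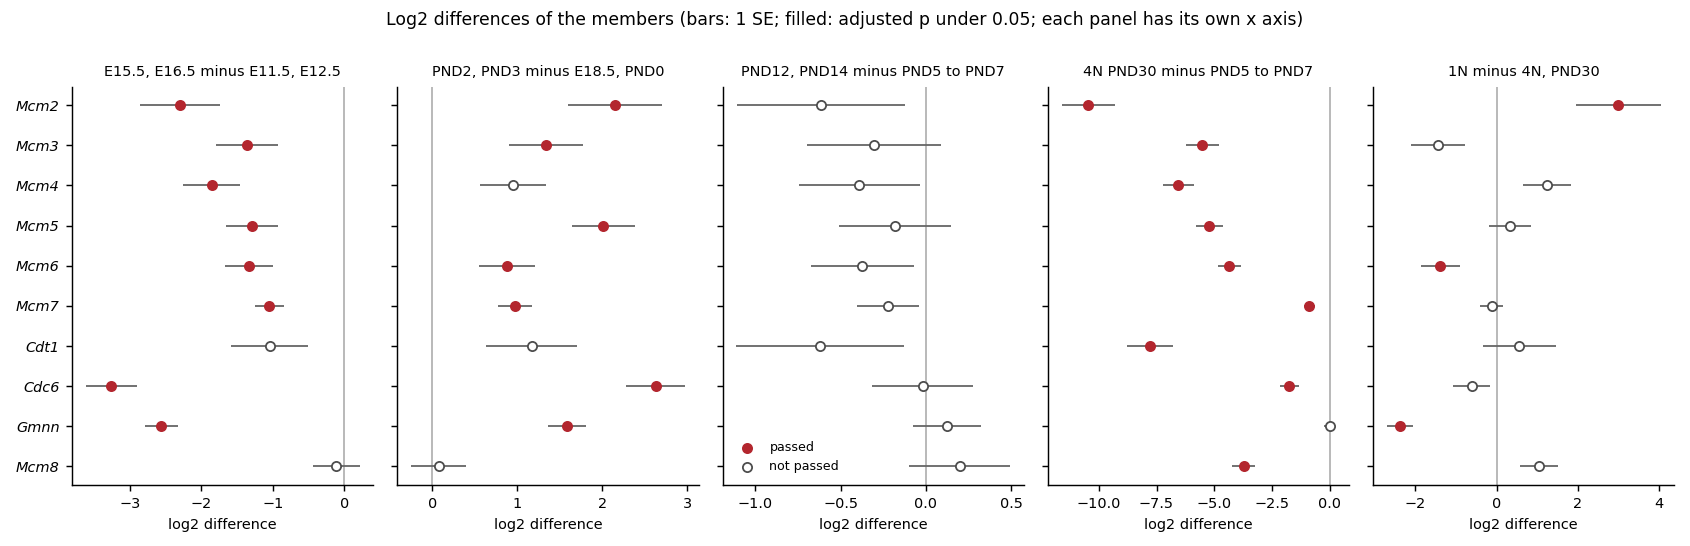
Log2 difference of each member (x axis, with a scale of its own in each panel) in 5 comparisons of wild-type germ cells, with bars of 1 SE and filled marks for an adjusted p under 0.05. Of the 10 members, 8 are filled at arrest, 7 at the return to division, 0 at the onset of meiosis, 9 in 4N cells and 3 between 1N and 4N cells.

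Most of the other replication genes were lower too. Of the 58 tested genes, 41 were lower and 1 was higher in arrested PGCs and the rest did not pass. The lower ones included 6 of 7 genes of origin recognition and loading, 12 of 19 fork genes and 8 of 8 proliferation genes. The largest falls were those of cyclin E1 (Ccne1, log2 -4.40), the proliferation marker Mki67 (-3.70) and the mitotic kinase Plk1 (-3.41). Cdk2, the kinase partner of cyclin E, was the one that rose (0.64). Somatic markers moved with this comparison: the 34 genes summed to 111.1 to 190.2 CPM in the 4 pools of E11.5 and E12.5, and to 490.0, 583, 743 and 1234 CPM in those of E15.5 and E16.5, where at most 5 of them were at 0. One of the 34, Afp, a marker taken for endoderm and mesoderm, was at 0.0 to 1.7 CPM in the pools of E11.5 and E12.5. It was at 162.2 to 398.6 CPM in those of E15.5 and E16.5. The part of the markers in the result was not tested.

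Between neighbouring time-points the differences were smaller. The ring sum was 1544 and 1454 CPM at E13.5, 1049 and 1122 CPM at E14.5, 688 and 700 CPM at E15.5 and 588 and 645 CPM at E16.5, and no pool of one of these time-points reached into the range of the next. The median log2 difference of the members was -0.66 from E13.5 to E14.5 and -0.72 from E14.5 to E15.5. Over the 22 steps between neighbouring time-points before PND30, 1 of 220 member tests passed, where 0.181% of the tests of all genes did, and 9 had an unadjusted p under 0.05. It was Gmnn between E14.5 and E15.5 (log2 -1.68, SE 0.32, adjusted p = 0.00658, edgeR), where 0.513% of all genes were lower. At E14.5 the cells of both pools lay on either side of 1000 CPM. In its replicates 42 of 93 and 44 of 94 cells had a ring sum above 1000 CPM, against 73 of 91 and 75 of 92 at E13.5 and 5 of 93 and 7 of 93 at E15.5. The 10th and 90th percentiles over cells of E14.5 were 464 and 1730 CPM in replicate 1, and 458 and 1466 CPM in replicate 2.

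**Figure D3:**
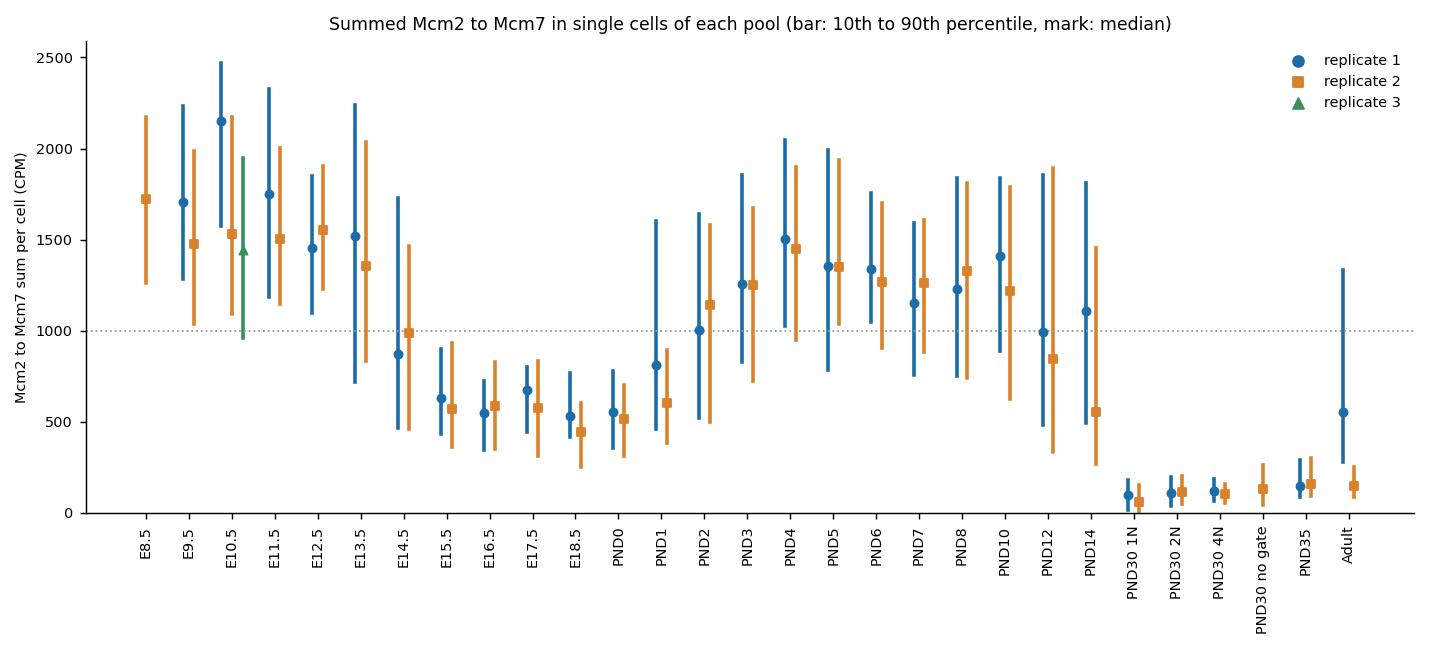
Sum of Mcm2 to Mcm7 per cell in CPM (y axis, from 0) in each wild-type pool by time-point (x axis), with the median as a mark, the 10th to 90th percentile as a bar and 1000 CPM as a dotted line. The share of cells above the line is 80.2% to 100% up to E13.5, 45.2% and 46.8% at E14.5, at most 7.5% from E15.5 to PND0, at least 7.2% from PND1 to PND14 and at most 2.6% later, apart from adult replicate 1 with 24.5%.

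The shares of the subunits in the ring sum varied over quiescence. Each transcript is counted once by its UMI, whatever its length. Mcm2 was 19.7% of the ring sum at E12.5, 12.4% at E15.5 and 8.83% at E16.5, and it returned to 18.4% at PND2. Mcm6, the subunit with the highest level in most pools, rose from 21.9% at E12.5 to 28.8% at PND0. These shares are means of the pools and were not tested. Cdt1 was at its lowest in the fetus at E15.5 and at 69.03 to 100.4 CPM in the pools of E16.5 to E18.5, when Cdc6 was at 2.88 to 13.1 CPM.

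After birth Cdc6, Gmnn and 5 of the 6 ring genes were higher than around birth. Mcm2 was at 63.8 and 47.98 CPM at E18.5 and 64.7 and 60.1 CPM at PND0, and at 195, 224, 229 and 253 CPM in the pools of PND2 and PND3. The groups did not overlap, and the log2 difference was 2.15 (SE 0.55, adjusted p = 0.00582, edgeR). Cdc6 rose from 7.48, 7.13, 13.7 and 5.92 CPM to 31.8, 46.8, 44.5 and 53.6 CPM (log2 2.62, SE 0.34, adjusted p = 1.95e-06, edgeR). Gmnn rose from 92.9, 72.15, 128.7 and 82.1 CPM to 199, 251, 248 and 254 CPM (log2 1.58, SE 0.22, adjusted p = 6.63e-06, edgeR). Mcm5 gained more than the other ring subunits but Mcm2, with 2.01 (SE 0.37).

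In all, 7 of 10 members were higher at PND2 and PND3 than at E18.5 and PND0, where 10.1% of all genes were. Their median was 1.26, and the median of all genes was -0.40, or between -0.57 and -0.21 with other scalings, which moved the share of higher genes among all calls from 42.4% to 25.4% with limma. Mcm4 (log2 0.95, SE 0.39, adjusted p = 0.0695) and Cdt1 (1.17, SE 0.54, adjusted p = 0.105) did not pass with edgeR, and both did without adult replicate 1, with 9 members called. Mcm6 passed narrowly (0.88, SE 0.33, adjusted p = 0.0488) and was lost with DESeq2 (adjusted p = 0.0548), with upper quartile factors (adjusted p = 0.0614) and in 6 of 8 fits that each left out 1 pool. Mcm3 (1.34, SE 0.43, adjusted p = 0.024, edgeR) was lost in 5 of these 8 fits, and 5 to 7 members passed in them. Mcm8 was at 50.6 to 72.7 CPM in the later and 56.6 to 87.1 CPM in the earlier pools, a log2 difference of 0.08 (SE 0.33). Of the 58 other genes 38 were higher and 0 lower, among them 8 of 8 proliferation genes, led by Plk1 (3.62), Mki67 (3.21) and Cdk1 (3.09). Somatic markers summed to 994 to 1481 CPM in the earlier and 660 to 1441 CPM in the later pools.

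The pools of PND1 were unlike, with a ring sum of 1042 CPM in replicate 1 and 675 CPM in replicate 2, and 40.3% against 7.2% of the cells above 1000 CPM. At PND2 13 of 25 cells of replicate 1 and 60.5% of those of replicate 2 were above that level. At PND4 164 of 182 cells of replicate 1 were, and the medians over cells were 1505.4 and 1448.5 CPM. Mcm7 was lower in replicate 2 from PND3 to PND5, at 242 and 128.1 CPM at PND3, 247 and 167 CPM at PND4 and 288 and 224 CPM at PND5, in replicates 1 and 2. From PND4 to PND10 the ring sum stayed between 1188 and 1570 CPM in every pool.

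At the onset of meiosis no member passed the test, though Mcm2 and Cdt1 lay lower in every later pool. Between PND12 and PND14 (4 pools) and PND5 to PND7 (6 pools), 0 of 10 members passed with edgeR, 0 at an unadjusted p under 0.05 and 0 with DESeq2, while 19.5% of all genes passed. Log2 differences ran from -0.62 (SE 0.49) for Cdt1 to 0.20 (SE 0.30) for Mcm8. With the replicate number as a block, 0 members passed with edgeR too. The replicates of PND12 and PND14 were unlike. The ring sum was 1259 and 1183 CPM in replicate 1 of PND12 and PND14, and 890 and 769 CPM in replicate 2. The somatic markers split in the same way, with 1610 and 946 CPM in replicate 1 and 424 and 275 CPM in replicate 2, against 562 to 1038 CPM in the pools of PND5 to PND7. Their part in the split was not tested, and with either replicate alone 0 members passed.

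Single cells of PND12 and PND14 covered a wide range, as the 10th and 90th percentiles of the ring sum were 266 and 1456 CPM in PND14 replicate 2 and 493 and 1809 CPM in replicate 1. Gmnn was at 260, 253, 283 and 271 CPM in the 4 pools, while Cdt1 was at 115.4, 83.6, 112.1 and 54.9 CPM. Of the other genes 8 were higher and 6 lower. Mcmdc2, a meiotic relative of the Mcm genes (3.02), cyclin E2 (Ccne2, 1.57) and the helicase cofactor Gins2 (1.14) had the largest rises, and cyclin A2 (Ccna2, -1.05), Aurkb (-1.01) and Plk1 (-0.95) the largest falls. Upper quartile factors moved the median of all genes here from 0.19 to 0, and the share of higher genes among all calls from 83.3% to 64.1%. Under that scaling 0 members had a positive difference, and 2 had one before.

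From PND30 on most members were low, apart from adult replicate 1. In 4N cells of PND30, the gate of spermatocytes, Mcm2 was seen with 12 and 3 UMIs, or 0.154 CPM (exact 95% Poisson interval 0.079 to 0.269) and 0.104 CPM (0.021 to 0.303), intervals that cover counting error only. It was at 234 to 265 CPM in the 6 pools of PND5 to PND7, and the log2 difference was -10.45 (SE 1.15, adjusted p = 3.90e-09, edgeR). Cdt1 was at 0.538 and 0.483 CPM against 139.99 to 161.04 CPM, a difference of -7.76 (SE 1.00). Mcm3, Mcm4, Mcm5 and Mcm6 were at 1.105 to 11.99 CPM in 4N cells, with log2 differences from -6.56 for Mcm4 to -4.35 for Mcm6. Mcm8 was at 5.06 and 2.76 CPM against 63.3 to 73.2 CPM (-3.74, SE 0.48, adjusted p = 6.21e-08, edgeR), so that it fell here, as it had not at mitotic arrest.

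In all, 9 of 10 members were lower in 4N cells than in spermatogonia, where 26.7% of all genes were lower and 33.8% higher. The median of the members was -4.78 and that of all genes 0, or 0.31 with DESeq2, which also called 9. Cdc6 fell less than the ring, from 44.3 to 56.2 CPM to 9.59 and 13.1 CPM (-1.76, SE 0.42). Gmnn was the exception, with 181 and 219 CPM in 4N cells and 251 to 278 CPM before, below every pool of spermatogonia in CPM but not after scaling (log2 -0.02, SE 0.25, adjusted p = 1, edgeR, and 0.41 with DESeq2, adjusted p = 0.0874). Of the 58 other genes 33 were lower and 9 higher. DNA polymerase alpha (Pola1, -8.22), Ccna2 (-6.89) and the checkpoint mediator Clspn (-4.71) fell the most, and Donson (1.86), Mtbp (1.11) and the single-strand binding subunit Rpa1 (1.09) rose the most. Somatic markers moved with this comparison, as they summed to 34.3 and 26.9 CPM in 4N cells and to 562 to 1038 CPM in the pools of PND5 to PND7. One of these markers, Afp, was at 0.1 CPM in both 4N pools and at 293.9 to 413.9 CPM in the pools of PND5 to PND7. The part of the markers in the result was not tested.

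Mcm7 remained where the other ring genes were lost. It was at 104.7 and 89.6 CPM in 4N, 112.3 and 100.9 CPM in 2N and 95.5 and 66.04 CPM in 1N cells, and at 126.8 and 121.8 CPM at PND35. It was lower than in spermatogonia in 4N cells (-0.90, SE 0.24, adjusted p = 0.00179, edgeR), but it made up 82.7% of the ring sum there, against 17.51% at PND5. These reads cannot be given to Mcm7 with certainty. Its last exon (chromosome 5, minus strand, gene at 138164583 to 138172422) shares 64 bases with the 3′ end of Cops6 on the plus strand, at 138164583 to 138164646, and whether the counting used strand is not given in the sources used here. At its 5′ end Mcm7 also shares 321 exonic bases, between 138172002 and 138172422, with Ap4m1 on the plus strand, which was at 7.69 to 40.3 CPM in the 57 pools. Cops6, a subunit of the COP9 signalosome, was above Mcm7 in all 57 pools, at 209 to 574 CPM, and at 209 to 353 CPM in the gated pools of PND30. Over the 57 pools log2(CPM + 1) of Mcm7 had a Pearson correlation of 0.738 with the mean of the other ring genes, against 0.983 to 0.992 for Mcm2 to Mcm6, a description over pools that share a time course.

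Haploid 1N cells differed from 4N cells most clearly in Gmnn, which was at 27.1 and 41.1 CPM against 181 and 219 CPM (log2 -2.38, SE 0.33, adjusted p = 8.51e-06, edgeR). In the 2N gate it was at 68.04 and 139.2 CPM. In all 3 of 10 members passed between 1N and 4N cells, and 14.2% of all genes did. Mcm6 was lower (3.41 and 3.93 CPM against 11.99 and 9.53 CPM, -1.39, SE 0.48, adjusted p = 0.0488, edgeR) and Mcm2 higher (3.00, SE 1.05, adjusted p = 0.0496, edgeR). Both calls are fragile. Mcm2 rests on 10 and 33 UMIs against 12 and 3 UMIs, its ratio of summed counts was 4.39 (95% interval 2.39 to 8.5, counting error only), and without 1N replicate 2 the log2 difference was 0.55 (adjusted p = 0.927, edgeR). With the replicate number as a block, since same-numbered gates share an animal, 1 member passed, which was Gmnn, and the adjusted p was 0.0633 for Mcm2 and 0.0573 for Mcm6 (edgeR). DESeq2 called 4, and without adult replicate 1 there were 6. The share of higher genes among all calls was 37.4%, 61.4% with DESeq2, where the median of all genes was 0.34 and not 0, and 51.3% with limma. Of the 58 other genes 27 were lower and 4 higher, the highest rise being that of Skp2 (2.52), the F-box protein that marks Cdt1 for breakdown, followed by Fen1 (2.19) and Tipin (1.90). Topbp1 (-2.81), Cdk2 (-2.61) and Ccne2 (-2.34) fell the most.

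In ungated cells the pattern was the same at PND30, PND35 and in adult replicate 2, with ring sums of 158, 169.5, 180.5 and 167 CPM, Cdc6 at 13.2 to 16.7 CPM and Gmnn at 169.7 to 213 CPM. Adult replicate 1 had a ring sum of 717 CPM, and 80 of 326 of its cells had more than 1000 CPM, against 1 of 447 cells in replicate 2. Its Mcm8 was at 69.5 CPM against 7.75 CPM.

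With the members left out of the ranking, the genes most like the ring over time were none of the listed replication genes. Among 11369 genes with a mean of at least 10 CPM, the mean of log2(CPM + 1) of Mcm2 to Mcm7 over the 57 pools was correlated most with Atic, an enzyme of purine synthesis (Pearson r 0.99), Bax, an apoptosis effector (0.989), the proteasome activator Psme2 (0.988), the respiratory chain subunit Ndufa4 (0.987) and Cnpy2 (0.987). The same measure of the other members against the ring was 0.981 for Cdt1, 0.939 for Mcm8, 0.68 for Cdc6 and 0.576 for Gmnn. These are descriptions over pools that share a time course.

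The position of a germ cell in the gonad made no detectable difference to the members. From E13.5 to E16.5 gonads had been cut into a distal (D), central (C) and proximal (P) part relative to the mesonephros. With the pool as a block, 0 of 10 members and 0 of 16013 genes differed between D and P in 8 pools with edgeR, so that 0% of all genes were called, while 602 genes and 0 members had an unadjusted p under 0.05 and DESeq2 called 2 genes. Gmnn had a log2 difference of -0.19 (SE 0.11) and the ring genes differences between -0.01 and 0.16. At E15.5 Gmnn was at 47.8 and 46.7 CPM in D and at 67.5 and 87.9 CPM in P, without overlap, but it did not pass (-0.66, SE 0.21, adjusted p = 0.866, edgeR).

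The comparison with Helq null germ cells sets PGCs that lack this helicase, which acts in repair of stalled forks, beside wild-type PGCs. The null mice descend from edited BVSC embryonic stem cells, while the wild-type cells came from a separate cross with BVSC males. The loss of Helq therefore cannot be told apart from differences of line and background, whose part was not tested. The null samples were 763 germ cells of the BVSC gate in 9 pools, against 984 wild-type cells in 12 pools. Helq itself was at 15.9 to 40.3 CPM in null and at 15.8 to 28.1 CPM in wild-type pools (log2 0.05, SE 0.17, adjusted p = 0.96, edgeR), and since the deletion is in the first exon and transcripts are counted at the 3′ end, this does not check the genotype. With time-point as covariate, 0 of 10 members differed, 0 at an unadjusted p under 0.05 and 0 with DESeq2, while 0.667% of 24755 genes did. Log2 differences lay between -0.06 (SE 0.13) for Mcm7 and 0.41 (SE 0.23) for Cdc6.

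At E15.5 the null pools were the ones with more of the ring. Its sum was 1090 and 1058 CPM in null and 688 and 700 CPM in wild-type pools. In the null pools 44 of 95 and 33 of 92 cells had more than 1000 CPM, against 5 of 93 and 7 of 93 wild-type cells. In 9 of 10 members, all but Mcm7, both null pools lay above both wild-type pools. The share of all genes with this order was not counted, so the number says nothing particular about the members. One of 10 members passed, where 0.885% of all genes were higher. It was Gmnn, with 145.2 and 122.95 CPM in null and 60.4 and 57.2 CPM in wild-type cells (log2 1.27, SE 0.30, adjusted p = 0.0361, edgeR), and without any of the null pools or wild-type replicates at E15.5 it did not pass (adjusted p from 0.0775 to 0.547). Mcm2 was at 210.1 and 163 CPM against 74.97 and 97.7 CPM (1.18, SE 0.31, adjusted p = 0.06). Cdc6 had the largest difference (1.45, SE 0.48, adjusted p = 0.155), and Mcm6 (0.84, SE 0.24) and Mcm4 (0.99, SE 0.29) had adjusted p of 0.092 and 0.102 with edgeR.

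The median of the members at E15.5 was 0.77 and that of all genes 0. Of the 58 other genes 7 were higher and 0 lower in null cells, 4 of them among the 8 proliferation genes, and Mki67 was at 93.04 and 53.6 CPM against 26.04 and 27.3 CPM. Somatic markers summed to 327 and 417 CPM in null and 583 and 490 CPM in wild-type pools of E15.5. That the genotype difference at E15.5 exceeds the mean difference at E11.5 and E12.5 was tested, and 0 members and 0 genes passed (edgeR), while 3 members and 2054 genes had an unadjusted p under 0.05.

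The other time-points give no common direction. At E14.5 the null pools were far apart, with ring sums of 1401 and 606.5 CPM around the wild-type 1049 and 1122 CPM. At E13.5 they were 1820 and 1285 CPM against 1544 and 1454 CPM. The 1 null pool of E18.5 had 467 CPM against 592 and 467 CPM, and those of E11.5 and E12.5 had 1771 CPM against 1876 and 1558 CPM, and 1714 CPM against 1547 and 1571 CPM. Mcm8 was at 61.1 to 129.6 CPM in null and at 56.6 to 112.2 CPM in wild-type pools.

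**Figure D4:**
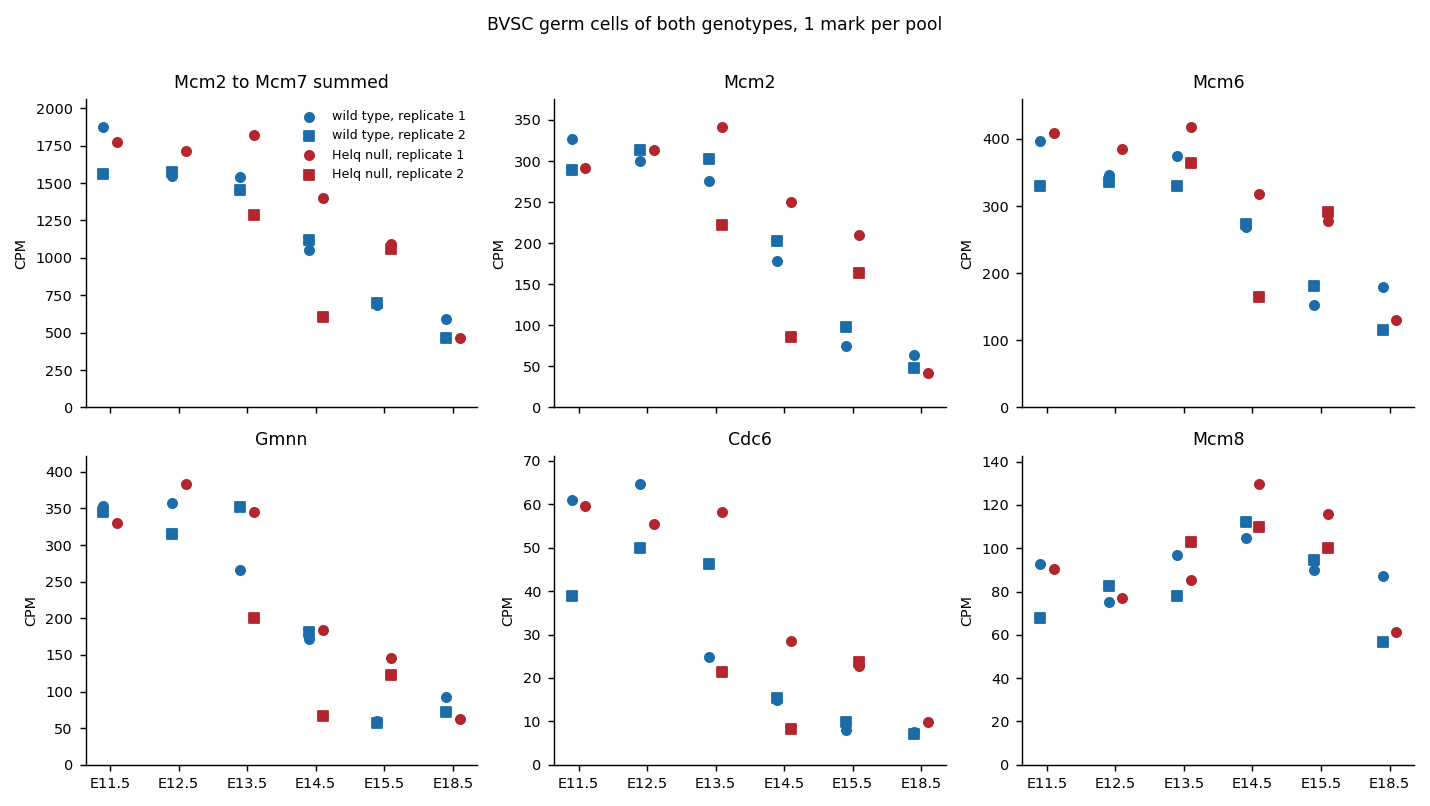
CPM (y axes, from 0) of the summed ring and of 5 members in wild-type and Helq null germ cells of the BVSC gate by time-point (x axis), with 1 mark per pool. Both null pools of E15.5 lie above both wild-type pools in all 6 panels, and those of E14.5 lie on either side of them in every panel but that of Mcm8.

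In somatic cells of the same gonads the share of lower members was near that of all genes. Cells of the Negative gate, sorted as lacking the reporters, were compared with the germ cells of the same 16 pools from E11.5 to E18.5, with the pool as a block. Of 572 wild-type Negative cells 12 had more germ than somatic markers. The 34 somatic markers summed to 2122 to 6914 CPM in Negative and to 80.6 to 1584 CPM in germ cells. Over all pools 4 of 10 members were lower in Negative cells and 0 higher, where 34.7% of all genes were lower. Mcm8 was the clearest, at 7.01 to 55.7 CPM in Negative and 56.6 to 112.2 CPM in germ cells, without overlap (log2 -1.72, SE 0.18, adjusted p = 1.25e-07, edgeR). Cdt1 (-0.94, SE 0.19), Mcm7 (-0.43, SE 0.14) and Mcm3 (-0.39, SE 0.14) were the others.

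The difference between both kinds of cell changed with time for most members. From E11.5 to E13.5, 8 of 10 members were lower in Negative cells (26.7% of all genes), Mcm2 being at 101.8 to 152.9 CPM against 276 to 314 CPM (-1.19, SE 0.20, adjusted p = 5.52e-05, edgeR). From E15.5 to E18.5, 5 members, among them Mcm2, Mcm4 and Mcm6, were higher in Negative cells (26.1% of all genes) and 2 lower (34.6%). The ring sum was then 321 to 953 CPM in Negative and 467 to 700 CPM in germ cells, and in 3 of the 8 pools it was lower in Negative cells. Gmnn was then at 22.4 to 339.6 CPM in Negative and 57.2 to 92.9 CPM in germ cells (1.13, SE 0.26), and Cdc6 at 0.81 to 64.1 CPM against 2.88 to 13.1 CPM (1.89, SE 0.42). The lowest values of both were those of the Negative cells of E18.5 replicate 2, with 22 cells. The difference between the early and the late contrast passed for 8 of 10 members, all higher in the late one, where 31.9% of all genes passed, from 0.82 (SE 0.24, adjusted p = 0.0143, edgeR) for Mcm7 to 2.61 (SE 0.62, adjusted p = 0.00305, edgeR) for Cdc6. It did not pass for Cdt1 (0.49, SE 0.36, adjusted p = 0.321) or Mcm8 (-0.02, SE 0.38, adjusted p = 0.974, edgeR), both of which were lower in Negative cells in either period. Of 57 other genes tested here, 15 were higher and 19 lower, and Gins2 (3.11), Mki67 (2.04) and Cdk1 (1.90) were the highest in Negative cells over all pools and Mcmdc2 (-2.69), Pole (-1.52) and Pold1 (-1.31) the lowest.

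**Figure D5:**
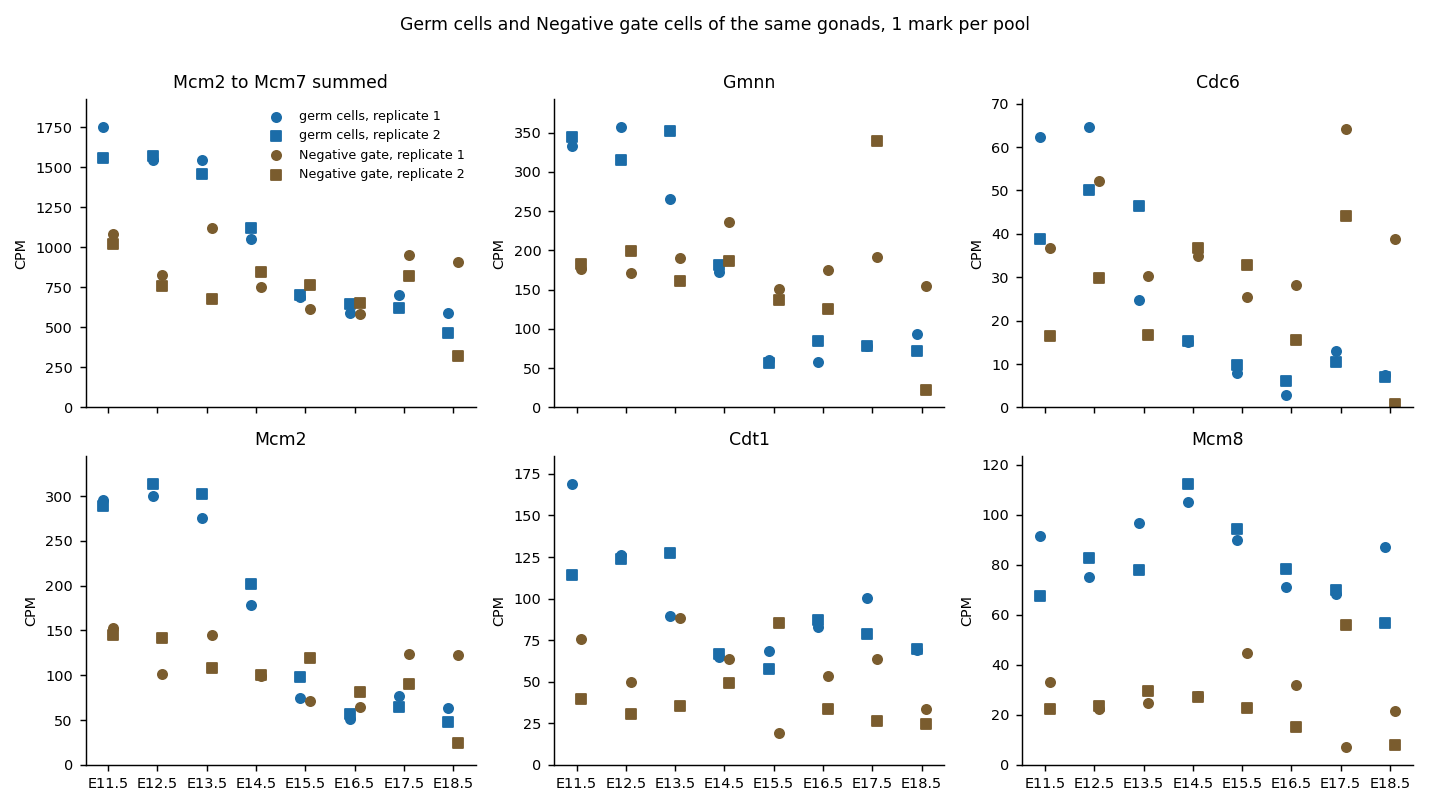
CPM (y axes, from 0) of the summed ring and of 5 members in germ cells and Negative gate cells of the same gonads by time-point (x axis), with 1 mark per pool. Germ cells lie above Negative cells up to E13.5 for the sum, Mcm2 and Gmnn and in every pool for Mcm8, and below them in 7 of 8 pools from E15.5 on for Gmnn and Cdc6.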

How the data were processed

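The deposited values were UMI counts per gene and cell, which the authors made from CASAVA 1.8 reads with UMI-tools, STAR, Subread and featureCounts on mm10. The strand setting is not given in the sources used here. Groups came from the deposited table of cells. Cells with more than 2000 genes and 10000 to 1000000 UMIs were kept, and germ cells were called where germ markers exceeded somatic markers. No doublet caller was run. Counts were summed per pool of at least 10 cells (time-point and replicate, at PND30 also gate), and cells were never used as replicates. Sums were tested with edgeR 4.0.16 (R 4.3.3; filterByExpr, TMM, quasi-likelihood F test, Benjamini-Hochberg over all genes tested, 0.05), all wild-type pools sharing 1 spread. The SE is the log2 difference over the root of F. Alternatives were DESeq2 1.42.0, limma 3.58.1 on cells scaled first (log2(CPM + 1)), upper quartile factors, no low count filter, a stricter germ cell call (2-fold), at least 20 cells, a replicate block and leaving out each pool, with the dispersion trend of the full fit held. The setting of at least 20 cells could change nothing, since the smallest pool of any fit held 22 cells. Same-numbered gates of PND30 come from 1 gonad by the study's sample table (correlation of their deviations -0.05), so the blocked count is given beside that comparison. Intervals of low counts are exact Poisson intervals (95%).

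The members, the gene lists and the tests were chosen with earlier results of these data known. Other pathway genes were named where they passed the test at a mean of at least 5 CPM, the 3 with the largest difference in each direction. Genes most like the ring were the 5 with the highest Pearson r, with the members left out. Of 59 listed pathway genes 1 had no row under its symbol. In simulated counts for the arrest comparison 62% of genes changed 2-fold and 100% of genes changed 4-fold were recovered, over 24659 genes. For the Helq comparison both shares were 100%, over 20961 genes. The simulations gave every gene the same dispersion and all pools the same composition, and changed only well-counted genes. They therefore do not give the share of changes that the fits of the real counts would recover.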

Additional observations from a re-analysis of the deposited data

Results flagged for a closer look

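The difference between Negative gate and germ cells was itself different from E15.5 to E18.5 than from E11.5 to E13.5. By a test of that difference (edgeR, 16 pools with the pool as a block), the log2 difference was larger in the later period by 1.64 for Mcm2, 0.86 for Mcm3, 1.28 for Mcm4, 1.14 for Mcm5, 1.00 for Mcm6, 0.82 for Mcm7, 2.00 for Gmnn and 2.61 for Cdc6.

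At E15.5 both Helq null pools lay above both wild-type pools, and at E18.5 the 1 null pool lay below both, for Mcm2 (log2 difference 1.18 at E15.5), Mcm4 (0.99), Mcm5 (0.70), Cdt1 (0.34) and Gmnn (1.27). The difference between these time-points was not tested, and the share of all genes with this order was not counted.

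Cells of E6.5 and E7.5, which enter no comparison, held the ring genes too. The lowest Mcm2 to Mcm7 sum of a pool was 1564.8 CPM at E6.5 (3 pools, median 1696.2 CPM, highest 1820.8 CPM) and 1063.4 CPM at E7.5 (6 pools, median 1536.3 CPM, highest 1746.5 CPM).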

How the results depend on the processing

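Of 1720 member values under an alternative, 1671 kept their side of the threshold, 16 came to pass it and 33 ceased to. Where a member was called in either fit, 0 changed sign, and sign changes of members called in neither fit were not counted. The 1720 values include those for at least 20 cells per pool, which removed no pool and so equal the main fits. Genes called between migrating and gonadal PGCs were 1213 (edgeR), 2816 with DESeq2 and 685 to 1287 leaving out 1 pool each. At the return to division they were 6613, 11806 with limma and 3196 to 5672 leaving out 1 pool each, with 5 to 7 members. At the onset of meiosis they were 5402, 1881 to 6451 leaving out 1 pool each, 873 without replicate 2 and 6728 without replicate 1 of PND12 and PND14. Between 1N and 4N cells they were 3933, 9093 with limma and 1782 to 3163 leaving out 1 pool each, with 1 to 2 members in place of 3, and 6 members without adult replicate 1. Genes called in Helq null cells were 165, 349 without a low count filter, 67 from E13.5 to E15.5 alone and 546 with DESeq2. At E15.5 they were 261, 806 with DESeq2 (2 members) and 8 to 438 leaving out 1 pool each (0 to 1 members). Between D and P they were 0, 15 without the filter, 2 with DESeq2 and 0 to 2 leaving out 1 pool each. Without the filter 2 members, not 4, passed in Negative cells. The cause of these changes was not tested. The settings without adult replicate 1, without a replicate of both PND12 and PND14, and all those at E15.5 were chosen after seeing the data. Outside PND30, correlations of same-numbered deviations ran from -0.38 to 0.85, and no comparison had all of them over 0.1. The highest was in the set for the onset of meiosis, where 4 of 20 were over 0.1. Pairing by replicate number is therefore not excluded there. With the replicate block, members called were 0 at migration, 8 at arrest, 6 at the return, 0 at the onset of meiosis, 9 in 4N cells, 1 between 1N and 4N cells and 0 in Helq null cells, and genes called were 1257, 12135, 6690, 5207, 16761, 3886 and 150. With no replicate block, 0 genes passed between D and P, and 9626 genes with 5 members in Negative cells. Depth limits the ring genes from PND30 on, where single pools hold as few as 3 UMIs of a member.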
